A study of Mus musculus with 6 samples.

Results

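The neuromuscular junction genes described here are 10 genes chosen by name, the 5 subunits of the muscle acetylcholine receptor (*Chrna1*, *Chrnb1*, *Chrnd*, *Chrne* and *Chrng*) and 5 genes of the agrin-MuSK pathway (*Agrn*, *Lrp4*, *Musk*, *Dok7* and *Rapsn*), out of 53084 genes in the count table. All 10 were found in it. RNA-seq counts came from muscle of 3 *Tarsl2*+/+ mice (numbers 583, 584 and 595) and 3 *Tarsl2*-/- mice (588, 589 and 591), which were 6-week-old C57BL/6 males on standard chow. In the *Tarsl2*-/- mice, a fragment with exon 3 of *Tarsl2*, the gene of a threonyl-tRNA synthetase-like protein, had been removed from C57BL/6J zygotes with CRISPR/Cas9, so the gene was lost in muscle, nerve and every other tissue. Neither the labels nor the methods name the muscle that was taken or the number of founder lines. The sample title of mouse 589 begins with KOT, whereas those of mice 588 and 591 begin with KO alone. What this difference means is not given in the sources used here. Between 16176591 and 20123767 counts were available per library.

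The labels were checked against the data first. Counts of *Tarsl2* itself were 456, 605 and 464 in *Tarsl2*+/+ and 40, 30 and 37 in *Tarsl2*-/- muscle. The protocol text in the labels names retina, but 10 retinal markers reached at most 7 counts, whereas 8 skeletal muscle fibre genes summed to between 49526 and 63439 CPM, that is counts per 1000000 of the library after TMM scaling. Of 8 motor neuron markers, 4 were at 0 counts in every library, among them *Chat*, the enzyme that makes acetylcholine, and the highest count of any of them was 10. Transcripts that the motor neuron makes in its cell body lie outside of these samples. In bulk muscle, fewer nuclei of a type and less RNA per nucleus cannot be told apart, and endplate genes are transcribed mainly by the few nuclei under the synapse.

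At the neuromuscular junction, acetylcholine from the nerve terminal opens a pentameric cation channel in the muscle membrane. The fetal form of the channel contains the gamma subunit, and in adult innervated muscle the epsilon subunit takes its place. Agrin, secreted by the nerve, binds Lrp4 on the muscle fibre, and Lrp4 activates the receptor tyrosine kinase MuSK. MuSK, with its cytoplasmic adaptor Dok7, drives the clustering of receptors, which are tied to each other and to the membrane by the scaffold protein rapsyn. Loss-of-function variants in many of these genes cause congenital myasthenic syndromes. Denervation is known to raise *Chrna1*, *Chrnd*, *Chrng* and *Musk* along the whole fibre.

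No member passed the test between *Tarsl2*-/- and *Tarsl2*+/+ muscle. Counts sufficed to test 9 of the 10, all but *Chrng*, and 0 of these 9 was called at an adjusted p under 0.05 in the quasi-likelihood test of edgeR, which called 2.27% of all 15075 tested genes. At an unadjusted p under 0.05, 2 of the 9 (*Rapsn* and *Agrn*) would be counted, where 19.8% of all tested genes would. DESeq2 likewise called 0 of the 9, against 4.53% of the genes to which it gave an adjusted p. Fold changes on the log2 scale, *Tarsl2*-/- over *Tarsl2*+/+, lay between -0.42 and 0.51, with 6 above and 3 below 0. Their median was 0.15, and that of all tested genes was 0.00253. In 1 of the 9 members, *Rapsn*, the CPM of the genotypes did not overlap, as was the case for 24.6% of all tested genes.

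**Figure D1:**
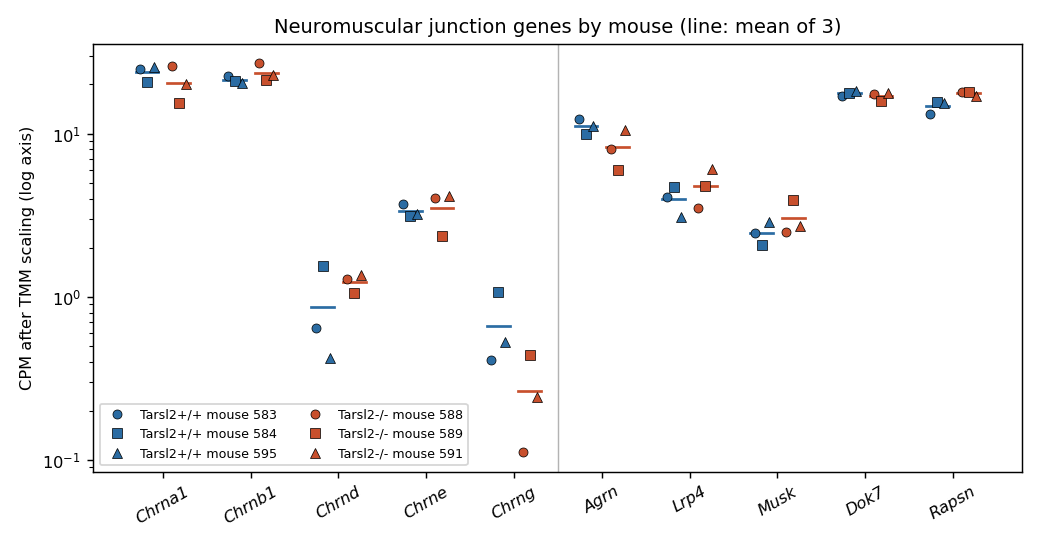
CPM after TMM scaling (log axis) of the 10 genes in each of the 6 mice, receptor subunits on the left and agrin-MuSK genes on the right, with *Tarsl2*+/+ mice in blue, *Tarsl2*-/- mice in orange and a line at each mean. The points of both genotypes overlap for every gene but *Rapsn*, and *Chrng* and *Chrnd* are the lowest.

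Among the receptor subunits, the most highly counted were alpha and beta. *Chrna1* (chromosome 2 of GRCm38, 73563215 to 73580338, minus strand, 9 exons) encodes the subunit that carries most of the acetylcholine binding site. It was at 24.9, 20.8 and 25.6 CPM in *Tarsl2*+/+ mice 583, 584 and 595, and at 25.9, 15.4 and 20.1 CPM in *Tarsl2*-/- mice 588, 589 and 591. Mouse 589 was the lowest of all 6 and mouse 588 the highest, so both extremes were *Tarsl2*-/- mice. The log2 fold change was -0.21 (standard error, SE, 0.16, 95% interval -0.57 to 0.14, adjusted p = 0.51), and without mouse 589 it was -0.05. *Chrnb1* (chromosome 11, 69784036 to 69795943, minus strand, 11 exons) encodes the beta subunit, through which rapsyn is thought to hold the receptor. Its levels were 22.6, 21.0 and 20.4 CPM in the *Tarsl2*+/+ and 26.9, 21.3 and 22.8 CPM in the *Tarsl2*-/- mice. Only mouse 588 stood clear above the others, and the log2 fold change was 0.15 (SE 0.11, interval -0.08 to 0.39, adjusted p = 0.475), or 0.05 without mouse 588.

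*Chrnd* and *Chrng* are neighbours on the plus strand of chromosome 1, the delta gene from 87190607 to 87200070 (11 exons) and the gamma gene from 87204657 to 87212694 (12 exons), with 4586 bases between them. Counts of *Chrnd* were 11, 29 and 8 in the *Tarsl2*+/+ mice (0.643, 1.54 and 0.42 CPM) and 23, 17 and 28 in the *Tarsl2*-/- mice (1.28, 1.06 and 1.36 CPM). The *Tarsl2*-/- values lay within the wide *Tarsl2*+/+ range, and mouse 584 alone had more *Chrnd* than any other mouse. The log2 fold change was 0.51, with an SE of 0.43 and an interval from -0.43 to 1.45 (adjusted p = 0.557), and it was 1.22 without mouse 584 and 0.17 without mouse 595. With so few counts, neither a fold of 0.74 nor one of 2.73 lies outside the interval of *Chrnd*. *Chrne* (chromosome 11, 70614883 to 70619216, minus strand, 12 exons) was at 3.68, 3.13 and 3.20 CPM in the *Tarsl2*+/+ mice and at 4.01, 2.37 and 4.13 CPM in the *Tarsl2*-/- mice. Here too mouse 589 was the lowest, and the other *Tarsl2*-/- mice were the highest. Its log2 fold change was 0.08 (SE 0.23, interval -0.43 to 0.59, adjusted p = 0.891), and the sign turned without mouse 588 (-0.019) or mouse 591 (-0.058). An annotated gene on the opposite strand, *4930544D05Rik*, lies inside *Chrne*, and no library held more than 2 counts of it. Between the longest coding transcripts of the 5 subunits the longest shared run of identical bases was 24, and between *Chrne* and *Chrng* it was 15.

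*Chrng* was the lowest member, with 7, 20 and 10 counts in *Tarsl2*+/+ mice 583, 584 and 595 and 2, 7 and 5 counts in *Tarsl2*-/- mice 588, 589 and 591. Scaled to library size this was 0.666 ± 0.349 CPM (SD, n = 3) against 0.264 ± 0.164 CPM (SD, n = 3), a log2 ratio of the means of -1.34. All 3 *Tarsl2*-/- values were below the *Tarsl2*+/+ mean, but mouse 589 (0.437 CPM) was above mouse 583 (0.409 CPM), so the groups overlapped (exact two-sided permutation test of log2 CPM, p = 0.2, where 3 mice against 3 allow 0.1 at the lowest). Counting error alone is wide here. The exact 95% Poisson interval was 12.2 to 30.9 counts for the 20 counts of mouse 584 and 0.242 to 7.22 for the 2 counts of mouse 588. In an edgeR fit without a filter on low counts, *Chrng* had a log2 fold change of -1.35 and an adjusted p of 0.213.

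The promoters of *Chrne* and *Chrng*, the subunits that are exchanged as muscle matures, and of *Chrna1*, which both receptor forms contain, are shown here. Of the control elements known for receptor genes, E-boxes can be read in each of them and an N-box in that of *Chrne* alone. E-boxes are bound by myogenic factors such as MyoD and myogenin, and the N-box is the element through which the Ets factor GABP acts in nuclei under the synapse. The sequences are the 250 bases before the RefSeq transcription start (GRCm38.p6), 5′ to 3′ on the strand of the gene, with E-boxes (CANNTG) and N-boxes (CCGGAA, or TTCCGG on the other strand) in capitals.
*Chrne*, chr11:70619195-70619444, minus strand: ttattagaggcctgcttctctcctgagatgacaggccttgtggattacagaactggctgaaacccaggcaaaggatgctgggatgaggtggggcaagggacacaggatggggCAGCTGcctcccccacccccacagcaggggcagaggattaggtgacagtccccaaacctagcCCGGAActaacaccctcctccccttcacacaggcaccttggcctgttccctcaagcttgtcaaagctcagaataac
*Chrng*, chr1:87205561-87205810, plus strand: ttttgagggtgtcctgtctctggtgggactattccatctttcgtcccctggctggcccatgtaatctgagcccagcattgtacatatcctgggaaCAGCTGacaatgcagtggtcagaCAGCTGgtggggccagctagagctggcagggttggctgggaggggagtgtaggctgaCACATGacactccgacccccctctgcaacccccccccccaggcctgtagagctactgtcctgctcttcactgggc
*Chrna1*, chr2:73580339-73580588, minus strand: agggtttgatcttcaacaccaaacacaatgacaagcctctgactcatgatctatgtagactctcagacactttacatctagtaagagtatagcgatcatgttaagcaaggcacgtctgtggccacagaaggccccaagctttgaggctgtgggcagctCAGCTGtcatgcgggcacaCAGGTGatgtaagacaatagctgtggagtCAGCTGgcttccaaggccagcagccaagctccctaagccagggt

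In these windows *Chrne* held 1 E-box, which begins 138 bases before the start, and 1 N-box, which begins 76 bases before it. *Chrng* held 3 E-boxes, which begin 155, 132 and 75 bases before the start and of which 2 read CAGCTG, and 0 N-boxes. Its RefSeq start lies inside the span given for the gene in the count table. *Chrna1* held 3 E-boxes, at 92, 73 and 44 bases before the start, and 0 N-boxes. An E-box occurred in 66.2% of all 32851 windows of this length in the table, the form CAGCTG in 13% and an N-box in 12%. Promoter entries were found for 7 of the 10 members, and those of *Chrnd*, *Lrp4* and *Rapsn* were not. *Musk* and *Chrnb1* also held 3 E-boxes each, and *Chrne* was the only one of the 7 with an N-box. These are matches of letters, and no binding was measured in these samples.

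The exchange of the fetal for the adult subunit was followed in transcripts only, as the ratio of epsilon to gamma counts, which needs no scaling between libraries. Receptor protein was not measured. In the *Tarsl2*+/+ mice *Chrne* had 63, 59 and 61 counts beside the 7, 20 and 10 counts of *Chrng*, ratios of 9.0, 2.95 and 6.1. In *Tarsl2*-/- mice 588, 589 and 591 it had 72, 38 and 85 counts beside 2, 7 and 5, ratios of 36.0, 5.43 and 17.0. Epsilon was thus the more counted subunit in all 6 mice. The ratio was highest in mice 588 and 591, whereas that of mouse 589 lay within the *Tarsl2*+/+ range. For mouse 588, whose 2 *Chrng* counts set the ratio, the exact binomial interval ran from 9.61 to 303. On the log2 scale, with 0.5 counts added to each gene, the ratio averaged 2.39 ± 0.78 in *Tarsl2*+/+ mice and 3.73 ± 1.27 in *Tarsl2*-/- mice (SD, n = 3 each). The difference of 1.34 was not distinguishable from the spread between mice (exact two-sided permutation test, p = 0.3). Leaving out mouse 589 gave 2.02 with no overlap between genotypes (exact permutation test, p = 0.2, the smallest that 3 mice against 2 allow), and leaving out mouse 588 gave 0.77. A shift of the ratio was thus not detectable at this depth and number of mice, the more so as 2 of the 6 libraries had 5 or fewer *Chrng* counts.

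**Figure D2:**
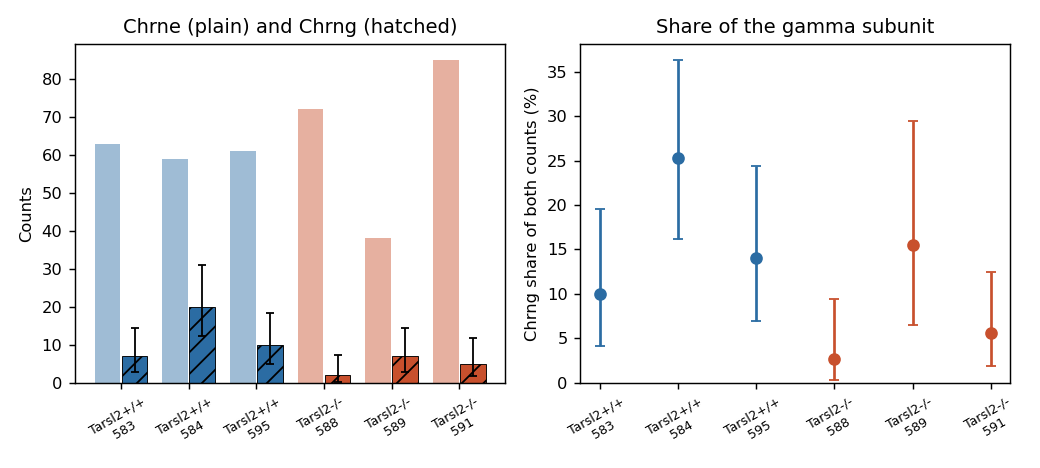
Left, counts of *Chrne* (plain bars) and *Chrng* (hatched bars, with exact 95% Poisson intervals) in each mouse, blue for *Tarsl2*+/+ and orange for *Tarsl2*-/-. Right, the share of *Chrng* in the counts of both genes in percent, with exact 95% binomial intervals, which runs from 10 to 25.3% in *Tarsl2*+/+ mice and from 2.70 to 15.6% in *Tarsl2*-/- mice.

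As a share, the gamma subunit made up 10%, 25.3% and 14.1% of the counts of both genes in *Tarsl2*+/+ mice 583, 584 and 595. The exact 95% binomial (Clopper-Pearson) intervals were 4.12 to 19.5%, 16.2 to 36.4% and 6.97 to 24.4%. It made up 2.70% (0.329 to 9.42%), 15.6% (6.49 to 29.5%) and 5.56% (1.83 to 12.5%) in *Tarsl2*-/- mice 588, 589 and 591. Only the intervals of mouse 584 and those of mice 588 and 591 lay apart from each other. As no molecular identifiers were used, these intervals account for the error of counting alone. Per kb of the longest coding transcript, which is 1616 bases for *Chrne* and 2780 for *Chrng*, the ratio was between 5.07 and 15.5 in *Tarsl2*+/+ and between 9.34 and 61.9 in *Tarsl2*-/- mice.

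In the agrin-MuSK pathway 0 of 5 genes passed the test, and the mean level was lower in *Tarsl2*-/- muscle for *Agrn* and *Dok7* and higher for *Lrp4*, *Musk* and *Rapsn*. *Agrn* (chromosome 4, 156165290 to 156197488, minus strand, 38 exons) encodes agrin, which muscle and Schwann cells make in addition to the motor neuron. It was at 12.2, 9.88 and 11.1 CPM in the *Tarsl2*+/+ mice and at 8.08, 5.99 and 10.6 CPM in the *Tarsl2*-/- mice. Mice 588 and 589 were below every *Tarsl2*+/+ mouse, and mouse 591 was within their range. This gave the largest negative log2 fold change of the tested members, -0.42 (SE 0.18, interval -0.82 to -0.01), with an unadjusted p of 0.0449 and an adjusted p of 0.24. Without mouse 589 it was -0.24 and without mouse 591 it was -0.65. The splice forms of agrin that activate MuSK cannot be told from gene counts.

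*Lrp4* (chromosome 2, 91457511 to 91513779, plus strand, 38 exons), the receptor for agrin, was at 4.09, 4.68 and 3.10 CPM in the *Tarsl2*+/+ and 3.51, 4.80 and 6.03 CPM in the *Tarsl2*-/- mice. Mice 589 and 591 were the highest, and mouse 588 was within the *Tarsl2*+/+ range. *Musk* (chromosome 4, 58285960 to 58374303, plus strand, 16 exons), the kinase itself, was at 2.46, 2.07 and 2.89 CPM in the *Tarsl2*+/+ and 2.51, 3.93 and 2.72 CPM in the *Tarsl2*-/- mice. Mouse 589 was the highest here, while mice 588 and 591 lay within the *Tarsl2*+/+ range. The log2 fold changes were 0.28 for *Lrp4* (SE 0.23, interval -0.23 to 0.79, adjusted p = 0.545) and 0.30 for *Musk* (SE 0.24, interval -0.24 to 0.83, adjusted p = 0.543). That of *Musk* was 0.08 without mouse 589, and that of *Lrp4* was 0.07 without mouse 591.

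*Dok7* (chromosome 5, 35056766 to 35087839, plus strand, 7 exons), the adaptor of MuSK, was the most even member, at 17.1, 17.7 and 18.3 CPM in the *Tarsl2*+/+ and 17.4, 15.8 and 17.7 CPM in the *Tarsl2*-/- mice. Its log2 fold change of -0.06 (SE 0.10, adjusted p = 0.795) had the narrowest interval of all members, from -0.27 to 0.16, which is 0.829 to 1.11 as a fold. *Rapsn* (chromosome 2, 91035620 to 91045729, plus strand, 8 exons), the receptor scaffold, was at 13.1, 15.7 and 15.3 CPM in the *Tarsl2*+/+ and 17.95, 17.9 and 17.0 CPM in the *Tarsl2*-/- mice. All 3 *Tarsl2*-/- mice were above all 3 *Tarsl2*+/+ mice (exact two-sided permutation test, p = 0.1, the lowest that 3 mice against 3 allow). Its log2 fold change was 0.26 (SE 0.11, interval 0.03 to 0.49), a fold of 1.20, with an unadjusted p of 0.0313 and an adjusted p of 0.202 by the edgeR fit. It stayed between 0.18 and 0.31 whichever library was left out. *Gm13778*, on the opposite strand, overlaps the end of *Rapsn* and had 7 to 19 counts per library, against 224 to 350 for *Rapsn*.

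**Figure D3:**
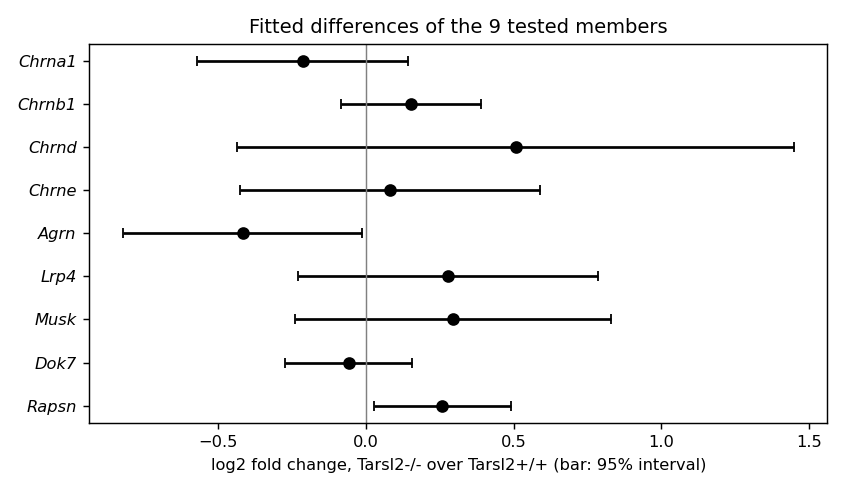
Log2 fold changes (*Tarsl2*-/- over *Tarsl2*+/+) of the 9 tested members by edgeR, with 95% intervals as bars. The interval is narrowest for *Dok7*, from -0.27 to 0.16, and widest for *Chrnd*, from -0.43 to 1.45, and 0 has an adjusted p under 0.05.

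Levels were compared between genes as CPM per kb of each gene's longest coding transcript in GENCODE. In *Tarsl2*+/+ muscle the order was *Chrnb1* with 9.90 ± 0.523, *Rapsn* with 9.15 ± 0.871, *Dok7* with 6.37 ± 0.225 and *Chrna1* with 5.42 ± 0.596 CPM per kb (SD, n = 3). Lower levels followed for *Chrne* with 2.07 ± 0.185, *Agrn* with 1.52 ± 0.161 and *Musk* with 0.722 ± 0.119 CPM per kb (SD, n = 3). The lowest were *Lrp4* with 0.499 ± 0.101, *Chrnd* with 0.294 ± 0.201 and *Chrng* with 0.239 ± 0.125 CPM per kb (SD, n = 3). The receptor is built with delta and epsilon beside alpha and beta, yet the delta transcript was near the bottom of this order and beta at its top. The order depends on the transcript length used, which for *Chrnd* was 2949 bases, of which 1233 are coding. Which transcript forms of each gene the libraries held was not tested. Over all 6 mice the ranges of *Rapsn* and *Dok7* did not overlap, nor did those of *Chrna1* and *Chrne*, while every other pair of neighbours in this order overlapped. In *Tarsl2*-/- muscle the means fell into the same order, from 11.0 ± 1.35 for *Chrnb1* to 0.0949 ± 0.0588 CPM per kb (SD, n = 3) for *Chrng*. With the gene length given in the count table, which joins all annotated exons, *Chrna1* (5.42 CPM per kb) came before *Dok7* (4.14 CPM per kb), and the ranges of *Chrne* and *Agrn* no longer overlapped.

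**Figure D4:**
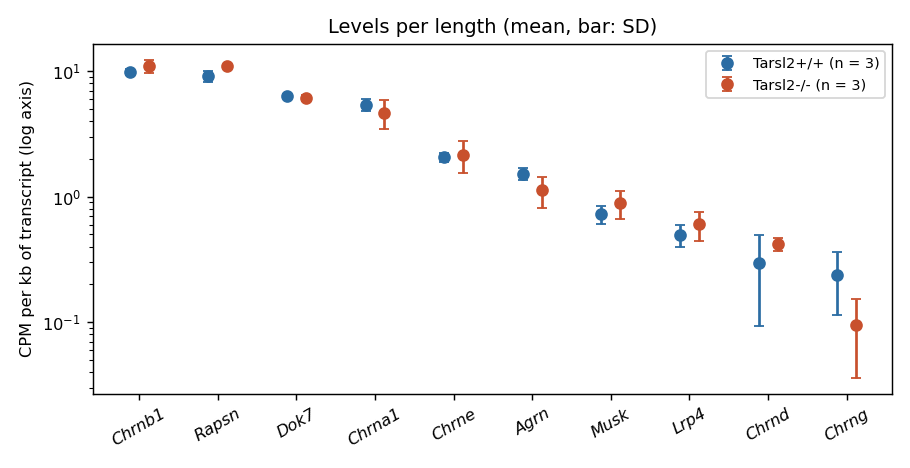
Mean CPM per kb of the longest coding transcript (log axis) with SD bars for each member in 3 *Tarsl2*+/+ (blue) and 3 *Tarsl2*-/- (orange) mice, in the order of the *Tarsl2*+/+ means. *Chrnb1* and *Rapsn* lead in both genotypes and *Chrnd* and *Chrng* come last.

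Mouse 589 was the lowest of the 6 mice in 4 of the 10 members (*Chrna1*, *Chrne*, *Agrn* and *Dok7*) and the highest in 1 (*Musk*). The 5 receptor subunits summed to 40.5 CPM in this mouse, against 47.5 to 52.2 CPM in the *Tarsl2*+/+ mice and up to 58.2 CPM in the *Tarsl2*-/- mice. The same library had the highest summed levels of 10 slow fibre genes (2460 CPM, against 1194 to 2033 in *Tarsl2*+/+ mice), of 8 Schwann cell genes (235 CPM, against 185 to 200) and of 5 adipocyte genes (6523 CPM, against 2552 to 3874). The sum of its 5 satellite cell markers was the lowest, at 24.0 CPM against 33.8 to 37.5 CPM in *Tarsl2*+/+ mice. Of these markers *Vcam1* (9.23 CPM, against 15.9 to 21.7), *Pax7* and *Myf5* were below every *Tarsl2*+/+ mouse. *Cdh15* and *Calcr* were within the *Tarsl2*+/+ range. Between genotypes, 8 immune cell genes summed to 994 to 1147 CPM in *Tarsl2*+/+ and 524 to 677 CPM in *Tarsl2*-/- muscle, with 3 of the 7 tested called lower and 0 higher. For 6 endothelial genes the sums were 151 to 170 against 115 to 148 CPM, with 1 called lower, and for 6 erythrocyte genes 4748 to 10392 against 4166 to 4536 CPM, with 0 called. Of the 6 erythrocyte genes 0 had a log2 fold change above 0, and their median was -0.86. In the edgeR fit 5 of them had an unadjusted p under 0.05, and the smallest adjusted p was 0.052. Of 7 fibroblast and tendon genes, which summed to 9568 to 11518 against 8168 to 9316 CPM, 0 were called. All 10 slow fibre genes had a log2 fold change above 0, with a median of 0.41 and 0 called (4 at an unadjusted p under 0.05), and their sums were 1194 to 2033 against 1649 to 2460 CPM. Fast fibre genes summed to 98589 to 107991 against 102780 to 114546 CPM. Of the 9 tested, 2 were called higher and 7 had a log2 fold change above 0, with *Myh4* (-0.03) and *Pvalb* (-0.23) below. Of the 8 skeletal muscle fibre genes 2, *Ckm* and *Des*, were also called higher in *Tarsl2*-/- muscle. Among all tested genes 2.27% were called and 19.8% had an unadjusted p under 0.05 in the edgeR fit. The part of the differences in marker genes in the values of the junction genes was not tested.

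Other genes of the junction, genes that respond to denervation and neuronal nicotinic subunits were taken as 8 lists with 87 genes, of which 73 had enough counts to be tested. By edgeR 0 of the 73 had an adjusted p under 0.05, the smallest being 0.0676, and 18 had an unadjusted p under 0.05, a share near the 19.8% of all tested genes. Their median log2 fold change was 0.05. DESeq2 called 4 of the genes, again a share near its 4.53% over all genes. They are named here after their values were seen: *Sorbs2* as lower and *Sntb1*, *Plec* and *Fbxo32* as higher in *Tarsl2*-/- muscle. In the edgeR fit *Sorbs2*, an adaptor that binds Abl kinases, had a log2 fold change of -0.73 and an adjusted p of 0.0769. Those of *Sntb1*, a syntrophin, and *Plec*, the cytolinker plectin, were 1.16 (adjusted p = 0.105) and 0.36 (adjusted p = 0.0676). *Fbxo32*, the ubiquitin ligase atrogin-1 of muscle atrophy, is from the list of denervation-induced genes. It had a mean of 25.2 CPM in *Tarsl2*+/+ and 43.3 CPM in *Tarsl2*-/- mice, a log2 fold change of 0.78 (adjusted p = 0.0676).

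Of 17 signalling partners of MuSK, kinases, adaptors and cytoskeletal regulators such as *Abl1*, *Crk* and *Rac1*, the median log2 fold change was 0.07, with 11 above 0. In the synaptic cleft and its basal lamina (15 genes) the median was -0.07 and 5 were above 0. The genotypes did not overlap in 3 of the 17 and in 1 of the 15, against 24.6% of all tested genes. *Ache*, the esterase that ends each signal by splitting acetylcholine, was at 7.37, 9.78 and 5.62 CPM in the *Tarsl2*+/+ and 7.47, 8.36 and 7.82 CPM in the *Tarsl2*-/- mice, a log2 fold change of 0.05 (SE 0.19, adjusted p = 0.912). The *Tarsl2*-/- values all fell inside the *Tarsl2*+/+ range. *Colq*, the collagen tail that anchors the esterase, had a log2 fold change of 0.17 (SE 0.27, adjusted p = 0.778). For the 5 genes of protein glycosylation that underlie congenital myasthenia, which include *Gfpt1* (0.00, SE 0.11, adjusted p = 0.995), the median was 0.00 and the range -0.14 to 0.05.

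The postsynaptic membrane complex, the utrophin-syntrophin-dystrobrevin scaffold with the sodium channel of the fibre, had a median of 0.22, with 9 of 10 genes above 0 and 0 called. Of the 10, 5 had an unadjusted p under 0.05 in the edgeR fit, against 19.8% of all tested genes. These were *Plec*, *Scn4a*, *Sntb1*, *Dtna* and *Syne1*, all higher in *Tarsl2*-/- muscle. In 4 of the 10 the genotypes did not overlap, against 24.6% of all tested genes. *Utrn*, the endplate relative of dystrophin, was at 26.8, 28.1 and 23.7 CPM in the *Tarsl2*+/+ and 28.4, 32.2 and 29.5 CPM in the *Tarsl2*-/- mice. The genotypes did not overlap, though by little, and its log2 fold change of 0.20 (SE 0.10) had an adjusted p of 0.299. In the list of neuregulin receptors and GABP, 8 of 10 genes could be tested, with a median of 0.07 and 0 called. In 2 of these 8 the genotypes did not overlap. *Erbb3*, a neuregulin receptor that Schwann cells and muscle both express, was at 2.86, 1.81 and 2.47 CPM in the *Tarsl2*+/+ and 3.57, 4.18 and 4.71 CPM in the *Tarsl2*-/- mice. All *Tarsl2*-/- mice were above all *Tarsl2*+/+ mice, with a log2 fold change of 0.81 (SE 0.22), which did not pass (adjusted p = 0.0816). *Gabpa*, the DNA-binding subunit of the factor that acts on the N-box, was at 26.2, 22.8 and 23.1 against 31.2, 29.8 and 28.5 CPM, again without overlap, and had a log2 fold change of 0.31 (SE 0.09, adjusted p = 0.105). *Etv5*, another Ets factor of synaptic nuclei, had a log2 fold change of -0.06 (SE 0.15, adjusted p = 0.86).

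**Figure D5:**
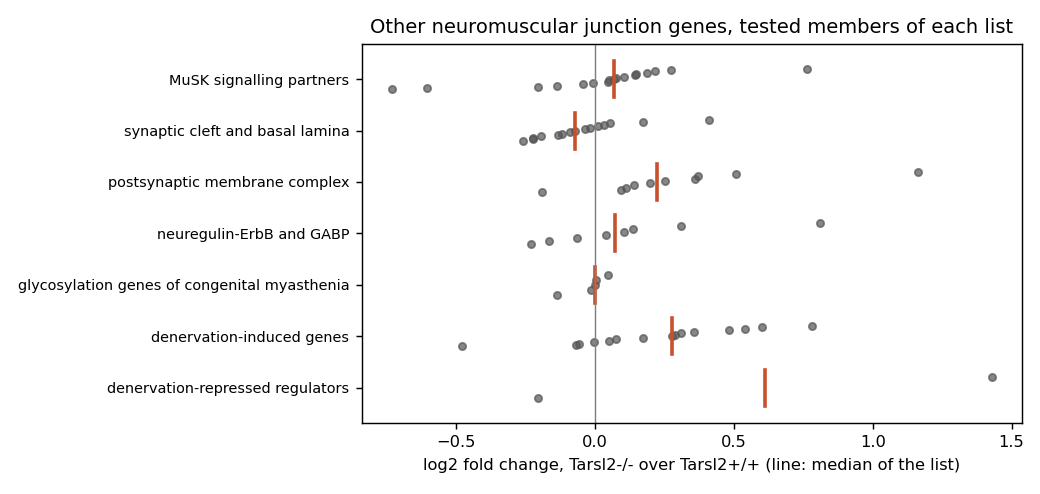
Log2 fold changes (*Tarsl2*-/- over *Tarsl2*+/+) of the tested genes in 7 lists of junction and denervation genes, 1 point per gene with a line at the median of the list. The medians run from -0.07 for the synaptic cleft to 0.28 for the 15 denervation-induced genes and 0.61 for a list of 2 genes (-0.21 where only *Hdac9* passes a stricter count filter), and 0 of these genes had an adjusted p under 0.05.

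Of 17 genes that muscle is known to raise when it loses its nerve, 15 were tested, with a median log2 fold change of 0.28, 11 above 0 and 0 called. The median was 0.14 without mouse 588. In the edgeR fit 5 of the 15 had an unadjusted p under 0.05, against 19.8% of all tested genes. These were *Fbxo32* (0.78), *Ankrd1* (0.60), *Cdkn1a* (0.36) and *Gadd45a* (0.31) above 0 and *Runx1* (-0.48) below. In 5 of the 15 the genotypes did not overlap, against 24.6% of all tested genes. *Myog*, the myogenic factor most responsive to denervation, was at 50.1, 52.9 and 39.3 CPM in the *Tarsl2*+/+ and 42.0, 34.9 and 58.6 CPM in the *Tarsl2*-/- mice, and both its lowest and its highest value were in *Tarsl2*-/- mice (log2 fold change -0.07, SE 0.17, adjusted p = 0.875). *Myod1* had a log2 fold change of 0.07 (SE 0.10, adjusted p = 0.735), and *Ncam1*, a surface molecule that spreads over denervated fibres, had -0.06 (SE 0.22, adjusted p = 0.919). *Runx1*, a transcription factor that is induced strongly in denervated muscle, was lower in mean, at 3.51 ± 0.528 against 2.52 ± 0.124 CPM (SD, n = 3). Its genotypes did not overlap, but its log2 fold change of -0.48 did not pass (SE 0.20, adjusted p = 0.22).

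*Gadd45a*, also induced on denervation, was at 46.1 ± 2.91 against 57.0 ± 6.02 CPM (SD, n = 3), without overlap. The log2 fold change was 0.31 (SE 0.10), with an adjusted p of 0.118. *Hdac4*, which links denervation to the receptor genes, had a log2 fold change of 0.17 (SE 0.12, adjusted p = 0.476). The repressors *Hdac9* and *Dach2*, which are known to fall on denervation, had log2 fold changes of -0.21 (SE 0.21, adjusted p = 0.627) and 1.43 (SE 0.63, adjusted p = 0.24), the latter at only 0.351 and 0.973 CPM in mean. The embryonic myosin *Myh3* was at 2.47 ± 1.44 and 2.44 ± 0.348 CPM (SD, n = 3), and the perinatal myosin *Myh8* at 1.47 ± 0.638 and 2.14 ± 0.103 CPM (SD, n = 3), the latter without overlap. Neither of these myosins of immature fibres passed the test, with log2 fold changes of 0.00 (SE 0.37, adjusted p = 0.997) and 0.54 (SE 0.33, adjusted p = 0.395).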

How the data were processed

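The authors prepared stranded poly(A) libraries, mapped the reads to mm10 with HISAT2 and deposited raw whole-number counts per gene, whereas the submitters' processing notes name Bowtie 0.12.2 and mm8. The coordinates of all 10 members equal those of GENCODE vM21 on GRCm38. The counting tool and its strand setting are not given in the sources used here. The table's gene length equals the union of annotated exons for all 10.

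Genes were filtered with filterByExpr (minimum count 10, minimum total 15), scaled with TMM factors, and genotype was tested as the only factor with edgeR 4.0.16 (R 4.3.3). The Benjamini-Hochberg adjustment ran over all 15075 genes with a threshold of 0.05, and every adjusted p in the text is from this fit unless another is named. Standard errors are the size of the log2 fold change over the root of F, and 95% intervals use the moderated degrees of freedom. Unnamed transcribed regions (448 rows) were kept. Single values were compared by exact two-sided permutation tests in scipy 1.17.1. The fit was tested on simulated data. Nothing says that the mice came from separate litters, so p-values measure only the spread between these 6 samples.

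The members and gene lists were chosen with earlier results of these data known. Named were all members, every gene of a list past the threshold and 17 genes fixed by name. Some further genes of the lists were named after their values were seen. Alternatives were DESeq2 1.42.0, limma-voom 3.58.1, RLE and upper quartile scaling, other count filters, each library left out, and other pseudocounts for the ratio. Lengths of genes were an alternative added after the data were seen.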

Additional observations from a re-analysis of the deposited data

How the results depend on the processing

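The number of members called was 0 in every fit that was run. The number of all genes called, 342, was 671 with DESeq2, 1437 without a filter on low counts, and 81 to 625 when each library was left out. Without the filter the prior degrees of freedom were infinite, against 7.23. In the wider lists 0 genes were called, but 4 with DESeq2, 9 without the filter, and 0 to 4 when each library was left out, with 4 without *Tarsl2*+/+ mouse 584 and 1 without *Tarsl2*-/- mouse 589.

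Among 115 log2 fold changes of single members under alternatives, 2 changed sign, both of *Chrne*, whose log2 fold change was -0.019 without mouse 588 and -0.058 without mouse 591, within a range of -0.058 to 0.29 when each library was left out. The cause was not tested. Of the list medians, that of the 2 denervation-repressed genes, 0.61, was -0.21 with at least 10 counts required in every library, where *Dach2* was not tested, and 1.03 with limma-voom. That of the denervation-induced genes ranged from 0.14 to 0.30 when each library was left out. *Chrng* ranged from -1.91 to -0.82. The difference in the log2 epsilon to gamma ratio was 1.24 with 1 count added, 1.43 with 0.1 added, and 0.77 to 2.02 when each library was left out. No paired analysis was possible because each mouse number occurs in 1 genotype only. Depth limits *Chrng* and *Chrnd* most.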

Other observations

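Neuronal nicotinic subunits, which form receptors in nerve cells and other tissues, were scarce in these libraries. Of 11 such genes, 5 had at most 3 counts in every library, 2 of them (*Chrna6* and *Chrnb3*) 0 throughout, and 1 could be tested. This was *Chrna10*, with 16, 20 and 18 counts in *Tarsl2*+/+ mice 583, 584 and 595 and 28, 24 and 23 counts in *Tarsl2*-/- mice 588, 589 and 591. The groups did not overlap, as was the case for 24.6% of all tested genes, and the log2 fold change of 0.49 (SE 0.29) did not pass in the edgeR fit (adjusted p = 0.376). *Chrna9*, which can pair with alpha-10 in one channel, had too few counts to be tested, with 1, 2 and 5 counts in the *Tarsl2*+/+ and 9, 14 and 14 counts in the *Tarsl2*-/- mice. It was singled out after its values were seen, so that its ranges, which lay apart, are a description only.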
